A study of Homo sapiens with 6 samples.

Results

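The alpha- and beta-cluster globin genes encode the protein chains of haemoglobin, and they were described here in K562 cells carrying a miR-543 vector or a control vector. The member list held 10 genes: HBE1, HBG1, HBG2, HBD and HBB of the beta cluster on chromosome 11, and HBZ, HBM, HBA2, HBA1 and HBQ1 of the alpha cluster on chromosome 16. Each gene was taken as the probe set that the platform annotation pairs with its symbol. A named probe set was found for 8 of the 10 genes, 1 each, among 21448 probe sets, of which 17709 had a single gene symbol. HBG1 and HBG2, the fetal gamma globins, had no named probe set in the annotation used and were not analysed here, so fetal beta-cluster globin could not be compared with the embryonic and adult genes.

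K562 is an established erythroleukaemia cell line. Cells of 1 group carried a miR-543 vector and were labelled as overexpressing this microRNA, and their controls had a control vector, with 3 arrays in each group. Total RNA was made into biotin-labelled cDNA and hybridised to single-colour arrays. The labels do not say how the vectors work, whether lines were clonal, or whether the arrays of a group came from separate cultures. The p-values therefore cover only differences among these arrays, possibly technical ones. The level of miR-543 itself was not analysed here. On the log2 scale the median signal of an array was 5.99 to 6.01, with lower quartiles between 3.98 and 4.03, and upper quartiles between 9.61 and 9.66.

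Haemoglobin is a tetramer of alpha-like and beta-like chains, each holding a haem. During development the genes of each cluster are used in the order in which they lie: zeta (HBZ) and epsilon (HBE1) in the embryo, alpha (HBA1, HBA2) and gamma in the fetus, and alpha with beta (HBB) and a little delta (HBD) in the adult. A distant enhancer region in each cluster, bound by erythroid factors such as GATA1, TAL1 and NFE2, drives these genes. K562 cells are known for making embryonic and fetal rather than adult haemoglobin.

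The mature microRNA after which the vector is named is shown because its seed, in capitals (bases 2 to 8), is the part that pairs with target mRNAs. It comes from RefSeq (GRCh38.p14, chr14:101032033-101032054, plus strand).
hsa-miR-543: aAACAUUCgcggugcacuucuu

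Promoter sequence was at hand in the RefSeq table (GRCh38.p14) for 2 of the 10 globins, HBD and HBM. They are shown because no other globin promoter was at hand. HBD had the largest positive difference of the measured globins and HBM the largest negative one. Each run gives the 250 bases before the gene start, 5′ to 3′ on the gene's strand, at chr11:5234484-5234733 (minus strand) for HBD and chr16:165728-165977 (plus strand) for HBM. Capitals mark matches, on either strand, to 4 short motifs, which did not overlap in these windows. The KLF1 motif was searched as CACCC, the core of the site this erythroid factor binds. The CAAT box of many promoters was searched in its common form with a leading C, as CCAAT. The GATA motif, core of the site of GATA1, was searched with a trailing A, as GATAA. The TATA box, which places the start of transcription, was searched as TATAA.
HBD: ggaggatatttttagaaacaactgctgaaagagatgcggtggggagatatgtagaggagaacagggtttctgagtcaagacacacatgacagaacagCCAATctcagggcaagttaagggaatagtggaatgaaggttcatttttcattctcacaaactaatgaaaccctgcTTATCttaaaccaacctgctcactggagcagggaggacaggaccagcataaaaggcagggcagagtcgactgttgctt
HBM: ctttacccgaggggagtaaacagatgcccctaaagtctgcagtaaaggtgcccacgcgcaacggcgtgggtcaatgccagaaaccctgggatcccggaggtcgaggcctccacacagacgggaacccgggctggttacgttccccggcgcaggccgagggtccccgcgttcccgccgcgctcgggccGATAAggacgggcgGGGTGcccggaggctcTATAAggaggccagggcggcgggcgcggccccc

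In the HBD window the GATA motif matched once, 78 bases before the start, and the CAAT box matched once, 153 bases before it, while the KLF1 motif and the TATA box had 0 matches. In the HBM window the KLF1 motif, the GATA motif and the TATA box matched once each, 49, 63 and 33 bases before the start, and the CAAT box had 0 matches. Among 35116 promoter windows of the same length, the KLF1 motif was found in 54.7%, the CAAT box in 32.0%, the GATA motif in 20.4% and the TATA box in 18.9%. These matches are descriptions of letters and not evidence of binding.

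The comparison asked whether globin mRNA levels differed between cells with the miR-543 vector and cells with the control vector. No globin differed past the threshold: 0 of the 8 measured genes had an adjusted p under 0.05 in limma with Benjamini-Hochberg adjustment over all probe sets. In the same fit 0.569% of all probe sets were called, 0.131% as higher and 0.438% as lower. At an unadjusted p under 0.05 there was 1 globin, HBD, against 10.6% of all probe sets. The log2 differences ran from -0.27 (HBM) to 0.56 (HBD), with 5 above 0, 3 below 0 and a median of 0.20, beside a median of 0.01 over all probe sets. Each difference is the mean log2 signal of the miR-543 arrays less that of the control arrays.

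Among the beta-cluster genes, HBE1 encodes the embryonic epsilon chain. HBE1 had log2 signals of 15.73, 15.76 and 15.93 on the miR-543 arrays, against 15.68, 15.67 and 15.78 on the control arrays. The groups overlapped, and the signal was near the top of the scale in both, with 0.755% of probe sets having a higher mean. The log2 difference was 0.10 (SE 0.14, 95% interval -0.20 to 0.40, limma adjusted p = 0.863). The interval corresponds to 0.868 to 1.32 times the control level. The difference was 0.035 without miR-543 replicate 3.

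HBD encodes the delta chain, the beta-like chain of the minor adult haemoglobin. HBD had log2 signals of 7.13, 7.23 and 7.75 with the miR-543 vector, against 6.59, 6.63 and 7.20 with the control vector. Control replicate 3 lay above the lowest miR-543 array, so the groups overlapped. The log2 difference was 0.56 (SE 0.21, 95% interval 0.09 to 1.04), or 1.48-fold, with an unadjusted p of 0.0248 and a limma adjusted p of 0.397. It stayed uncalled over its 11 alternative fits, with adjusted p between 0.236 and 0.753. The difference was 0.37 without miR-543 replicate 3 and 0.76 without control replicate 3.

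HBB encodes the adult beta chain. HBB had log2 signals of 11.10, 11.06 and 11.17 on the miR-543 arrays, against 11.34, 10.62 and 11.74 on the control arrays. The 3 miR-543 arrays lay inside the range of the controls, whose SD was 0.57, against 0.056 in the miR-543 group. The log2 difference was -0.12 (SE 0.24, 95% interval -0.66 to 0.41, limma adjusted p = 0.907). Single control arrays set its sign: the difference was -0.43 without control replicate 2 and 0.13 without control replicate 3.

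The difference between the delta and beta chains was singled out after their values were seen and was not tested. Another difference chosen in this way, the mean of HBA1, HBA2 and HBZ minus HBE1, overlapped between the vectors. It was 0.293, 0.237 and -0.15 on the miR-543 arrays, against -0.2, -0.07 and 0.003 on the control arrays. The log2 signal of HBD minus that of HBB was -3.97, -3.83 and -3.42 on the miR-543 arrays and -4.75, -3.99 and -4.54 on the control arrays. Every miR-543 array lay above every control array, but barely at the closest points (-3.97 against -3.99). The mean shift between the vectors was 0.69, with control HBB spread widely (SD 0.57). Of single probe sets 15.4% did not overlap, and the share among pairs was not computed. The size of such a difference on 1 array depends on the probes and gives no ratio of the mRNAs.

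In the alpha cluster, HBZ encodes the embryonic zeta chain. HBZ had log2 signals of 15.78, 15.97 and 15.63 with the miR-543 vector, against 15.33, 15.37 and 15.71 with the control vector. Control replicate 3 again lay above the lowest miR-543 array. The log2 difference was 0.32 (SE 0.16, 95% interval -0.03 to 0.68, limma adjusted p = 0.524).

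HBA1 and HBA2 are the duplicated genes of the alpha chain, used from the fetus onward, and encode the same protein. HBA1 had log2 signals of 16.17, 16.00 and 15.86 on the miR-543 arrays, against 15.54, 15.72 and 15.83 on the control arrays. HBA2 had 16.12, 16.02 and 15.85 on the miR-543 arrays, against 15.57, 15.71 and 15.81 on the control arrays. Both had all miR-543 arrays above all control arrays, by a margin of a few hundredths at the closest points.

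The log2 difference of HBA1 was 0.31 (SE 0.15, 95% interval -0.02 to 0.65, limma adjusted p = 0.506), a 1.24-fold difference. That of HBA2 was 0.30 (SE 0.14, 95% interval -0.02 to 0.62, limma adjusted p = 0.509), or 1.23-fold. The signals of the 2 genes differed by at most 0.05 on any array. Because the genes are near-identical copies whose probes may be shared, their values are uncertain as separate measurements and may be 1 signal.

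HBM and HBQ1, the mu and theta genes, are minor members of the alpha cluster whose protein is not a known part of any major haemoglobin. HBM had log2 signals of 3.51, 3.83 and 3.70 with the miR-543 vector, against 3.90, 4.04 and 3.91 with the control vector. All 3 miR-543 arrays were lower, but the group means of 3.68 and 3.95 were under the lower quartile of every array. The log2 difference was -0.27 (SE 0.14, limma adjusted p = 0.555), at a level where detection was not assessed.

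HBQ1 had log2 signals of 6.28, 6.21 and 6.45 with the miR-543 vector, against 6.42, 6.29 and 6.35 with the control vector. The groups overlapped and the log2 difference was -0.04 (SE 0.14, 95% interval -0.35 to 0.27, limma adjusted p = 0.951).

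**Figure D1:**
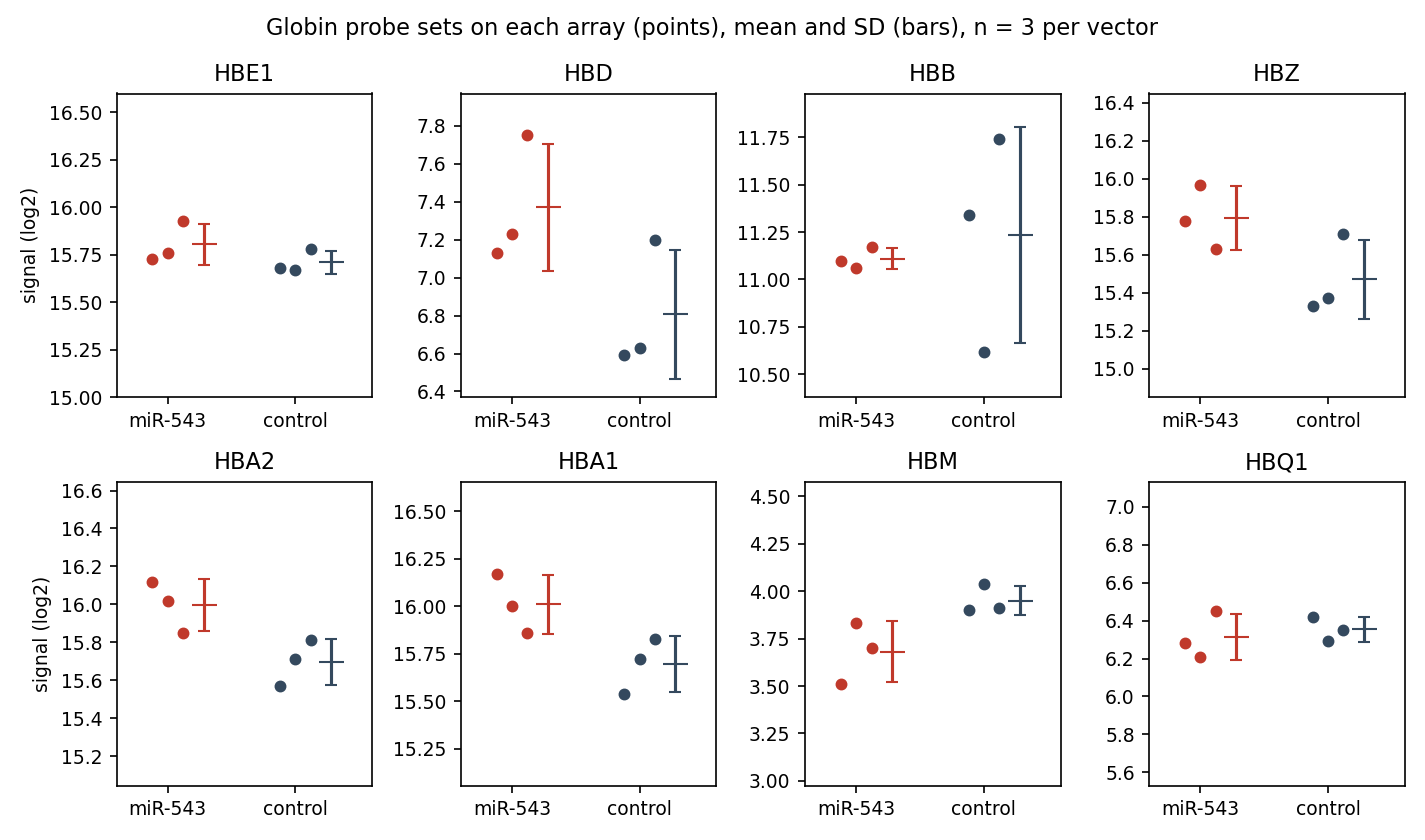
Log2 signal of the 8 measured globin probe sets, with the miR-543 vector (red) left of the control vector (dark). Points are arrays, bars are mean and SD (n = 3), and every panel spans the same log2 range. HBA1 and HBA2 are higher and HBM is lower on all 3 miR-543 arrays, and the other 5 genes overlap.

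Counted over the 8 genes, 3 had groups that did not overlap, 2 higher (HBA1 and HBA2) and 1 lower (HBM). Over all probe sets 15.4% did not overlap, 7.89% higher and 7.5% lower. HBA1 and HBA2 may be 1 signal, and HBM lay below the lower quartile of the arrays. The same counts, 2 higher and 1 lower, were found after a further quantile normalization and after a shift to equal array medians. The median difference of all probe sets under these scalings was 0.007 and 0.008.

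**Figure D2:**
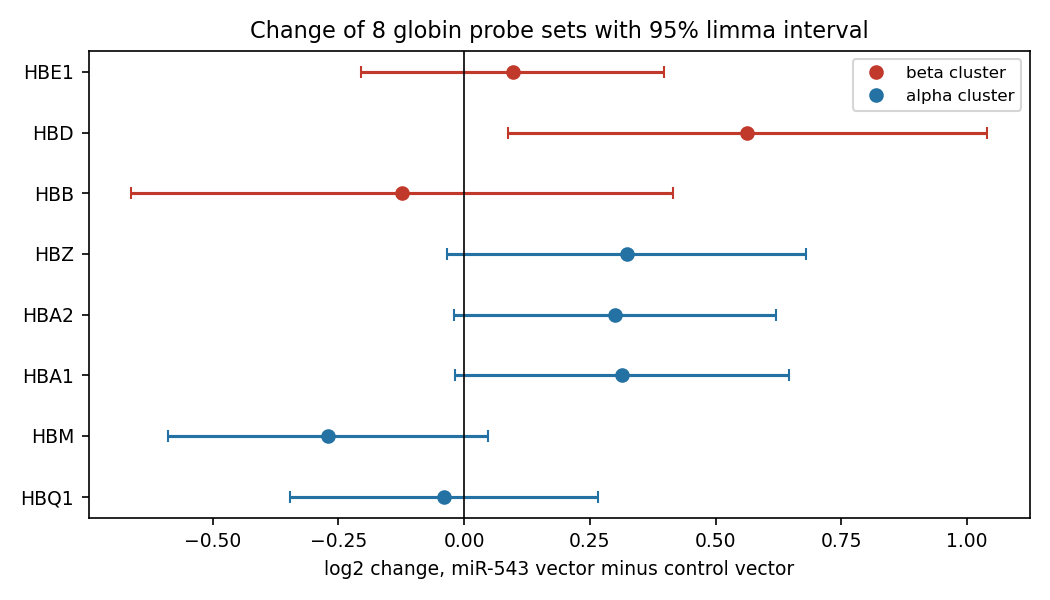
Log2 difference (miR-543 vector minus control vector, horizontal axis) of each globin with its 95% limma interval, beta-cluster genes in red and alpha-cluster genes in blue. The interval of HBD (0.09 to 1.04) lies above 0, the other 7 include 0, and none passed after adjustment.

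Whether embryonic and later globins moved differently was asked within each cluster. Levels of different probe sets cannot be compared, so the within-array difference of a pair was followed between the vectors. Whether bright and dim probe sets respond to the same degree was not tested. Of 8 pairs planned, 4 involved a gamma gene and could not be run, and 4 were compared by exact permutation of the 6 arrays, two-sided. With 3 against 3 this test cannot give a p below 0.1, so it could not pass 0.05.

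HBE1 minus HBD, embryonic against minor adult, was 8.60, 8.53 and 8.18 on the miR-543 arrays, against 9.09, 9.04 and 8.58 on the control arrays. The shift was -0.47 (95% interval -1.04 to 0.11, exact permutation p = 0.2, adjusted over the 4 pairs 0.8). HBE1 minus HBB, embryonic against major adult, was 4.63, 4.70 and 4.76 on the miR-543 arrays, against 4.34, 5.05 and 4.04 on the control arrays. Its shift was 0.22 (95% interval -0.62 to 1.06, exact permutation p = 0.6, adjusted p = 1). Control arrays decided its size: it was 0.0017 without control replicate 3 and 0.51 without control replicate 2. Both intervals included 0.

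In the alpha cluster the embryonic gene was set against each alpha gene. HBZ minus HBA1 was -0.39, -0.03 and -0.23 with the miR-543 vector, against -0.21, -0.35 and -0.12 with the control vector, a shift of 0.01 (95% interval -0.33 to 0.35, exact permutation p = 1). HBZ minus HBA2 shifted by 0.02 (95% interval -0.28 to 0.33, exact permutation p = 0.8, adjusted p = 1).

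As class means, given without a test, the log2 difference was 0.21 for the embryonic genes (HBE1 and HBZ), 0.22 for the adult beta-cluster genes (HBB and HBD) and 0.31 for the alpha genes (HBA1 and HBA2). By cluster, it was 0.18 over the 3 measured beta-cluster genes and 0.13 over the 5 alpha-cluster genes. The adult mean hides unlike members, 0.56 for HBD and -0.12 for HBB. The alpha-cluster mean also does, with -0.27 for the dim HBM, -0.04 for HBQ1 and 0.32 for HBZ. It counts HBA1 and HBA2, which may be 1 signal, as separate genes.

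**Figure D3:**
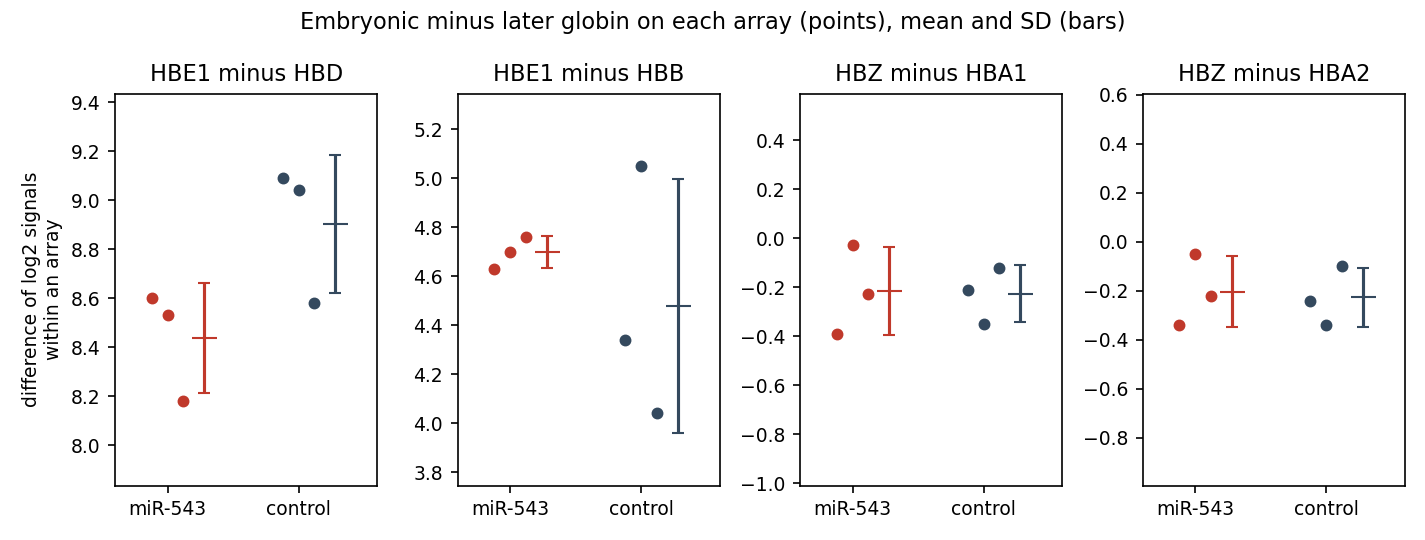
Log2 signal of an embryonic globin minus that of a later globin of the same cluster on each array, with the miR-543 vector (red) left of the control vector (dark). Points are arrays and bars are mean and SD (n = 3). All 4 pairs overlap between the vectors.

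The flanking genes were examined because globin clusters sit among unrelated genes. The nearest to the beta cluster are olfactory receptors, and those around the alpha cluster belong to various other families. OR51B4, the olfactory receptor gene next to HBE1 in gene order, had log2 signals of 11.52, 11.68 and 11.72 on the miR-543 arrays, against 12.45, 12.42 and 12.31 on the control arrays. The groups did not overlap. It fell by 0.75 on the log2 scale (SE 0.14, 95% interval -1.06 to -0.45), to 0.593 times the control level, with a limma adjusted p of 0.0461.

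That call was the only one among 16 measured beta-cluster neighbours, beside 0.569% of all probe sets, and lay close to the threshold. An unadjusted p under 0.05 was found for 4 of the 16, and 5 had groups that did not overlap, 2 higher and 3 lower, beside 10.6% and 15.4% of all probe sets. The call was lost with the replicate block (adjusted p = 0.134), and when any 1 array was left out. The adjusted p was then 0.202, 0.146 and 0.109 for the control arrays 1 to 3, and 0.169, 0.133 and 0.106 for the miR-543 arrays 1 to 3. Over its 11 alternatives the adjusted p ran from 0.00162 to 0.202. The log2 difference stayed between -0.80 and -0.69. Between HBE1 and OR51B4 themselves the difference of 2 changes was not tested.

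The next gene outward, OR51B2, had a log2 difference of 0.39 with the miR-543 arrays at 8.18, 8.25 and 7.97, against 7.67, 7.95 and 7.60 on the control arrays (limma adjusted p = 0.406). All 3 miR-543 arrays were higher, the opposite direction to OR51B4. On the HBB side OR51V1 and OR52A1 had differences of 0.21 and 0.19 (adjusted p = 0.681 and 0.83), at low signals with means under 4.

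Of 11 measured neighbours of the alpha cluster 0 were called, beside 0.569% of all probe sets. At an unadjusted p under 0.05 there were also 0, beside 10.6% of all probe sets. With 11 genes, counts of 0 lie near those shares. NPRL3, whose introns hold the alpha-globin enhancers, had log2 signals of 10.63, 10.49 and 10.44 on the miR-543 arrays, against 10.49, 10.43 and 9.95 on the control arrays. The log2 difference was 0.23 (SE 0.17, limma adjusted p = 0.702), and 0.06 without control replicate 3. MPG, a DNA repair glycosylase beside it, had a difference of 0.25, and LUC7L and FAM234A on the HBQ1 side had 0.02 and 0.19, with adjusted p between 0.609 and 0.975.

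**Figure D4:**
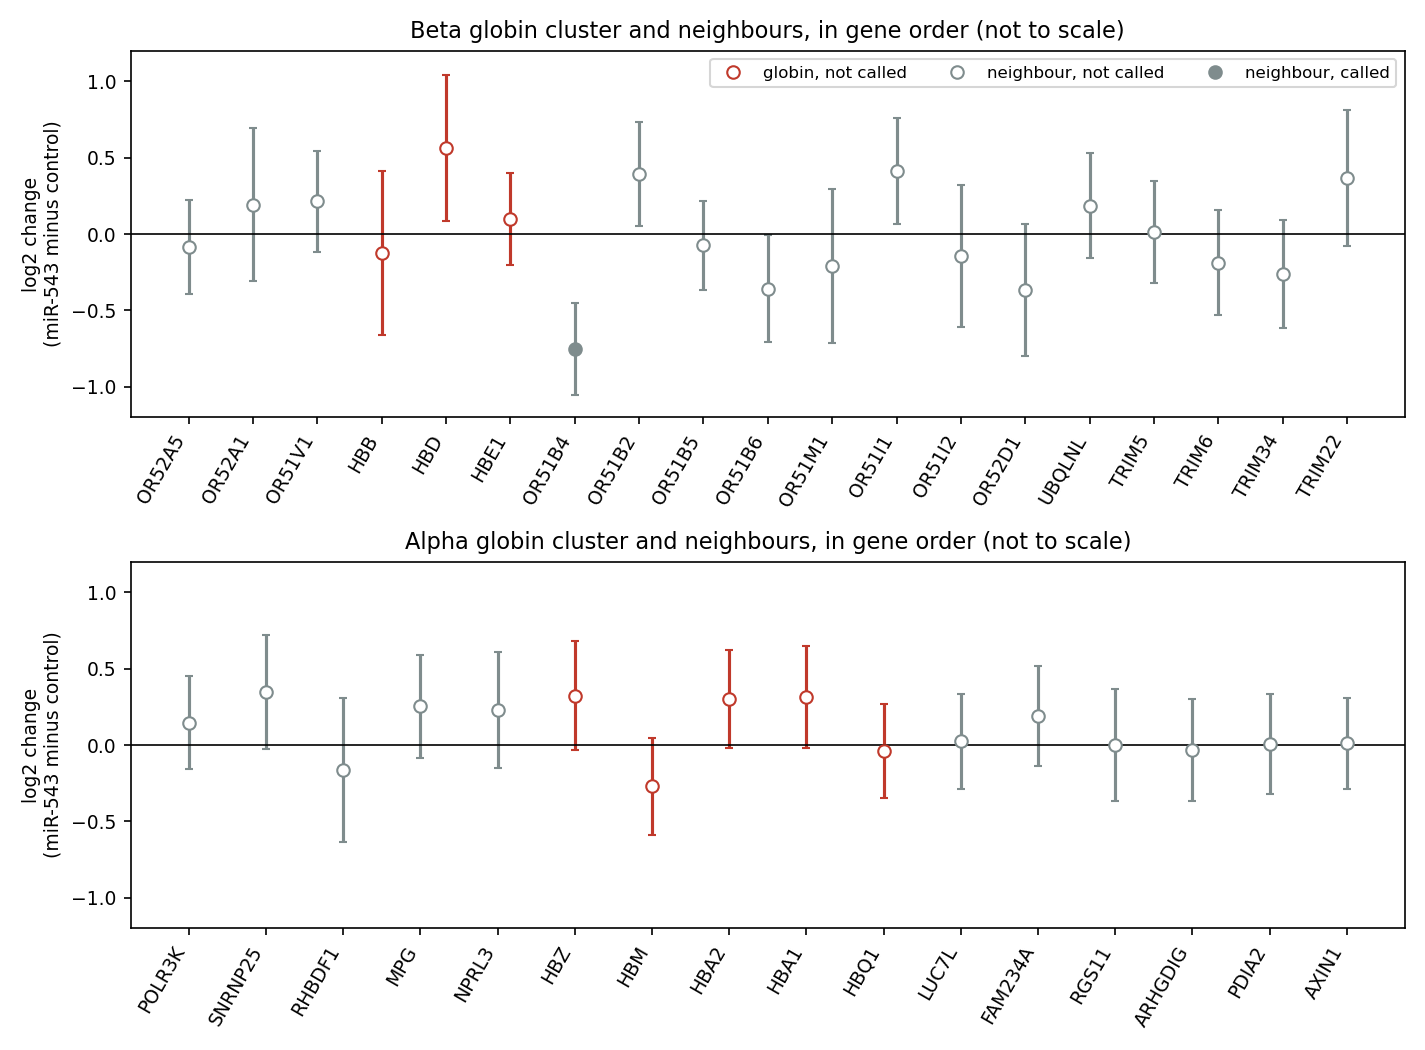
Log2 difference with 95% limma interval for the globins (red) and their measured neighbours (grey) in gene order, which is not to scale, for the beta cluster (top) and the alpha cluster (bottom). The filled point is OR51B4 (-0.75), the one called gene, next to HBE1 (0.10).

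Regulators of the globin genes were taken from a list of 40 genes, of which 35 had a named probe set. None was called in limma over all probe sets in either direction, and 4 had an unadjusted p under 0.05, where 10.6% of all probe sets did. Of the 35, 16 lay above 0 and 19 below, with a median log2 difference of -0.02, beside 0.01 over all probe sets. The groups did not overlap for 5 higher regulators, KLF1, TAL1, NFE2 and CTCF among them, and 1 lower, LIN28B. Over all probe sets 7.89% did not overlap as higher and 7.5% as lower.

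KLF1, the erythroid factor that binds CACCC boxes and activates adult beta globin, had the smallest p of the list. KLF1 had log2 signals of 7.67, 7.43 and 7.31 on the miR-543 arrays, against 6.80, 6.87 and 6.75 on the control arrays. The groups did not overlap, and the log2 difference was 0.66 (SE 0.15, limma adjusted p = 0.106). It passed in 1 of 11 alternatives, when probe sets under the median signal were left out (adjusted p = 0.0378).

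Like KLF1 in the main fit, other activators of the list did not pass. TAL1, a helix-loop-helix factor, had log2 signals of 9.96, 10.04 and 9.75 with the miR-543 vector, against 9.67, 9.43 and 9.43 with the control vector, a difference of 0.41 (limma adjusted p = 0.37). NFE2, a leucine zipper factor that binds the beta-cluster enhancer, had 11.29, 11.23 and 11.15, against 10.74, 10.93 and 10.98 with the control vector, a difference of 0.34 (limma adjusted p = 0.423). In both, all miR-543 arrays were higher.

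The cofactors LMO2, LDB1 and ZFPM1, which work with TAL1 or GATA1, had differences of 0.02, -0.04 and -0.13. GATA1, the central erythroid factor, averaged 15.7 ± 0.091 with the miR-543 vector and 15.7 ± 0.045 with the control vector (SD, n = 3). Its log2 difference was 0.01 with a 95% interval of -0.29 to 0.31.

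Among repressors of embryonic and fetal globin, BCL11A had log2 signals of 4.19, 3.83 and 4.74 on the miR-543 arrays, against 4.23, 4.26 and 4.46 on the control arrays. These lay below the array medians in both groups and overlapped, with a difference of -0.06 (SE 0.21, limma adjusted p = 0.95). ZBTB7A, a second gamma-globin repressor, had a difference of -0.20 and MYB, which restrains erythroid maturation, one of -0.13 (limma adjusted p = 0.687 and 0.8).

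LIN28B, an RNA-binding protein of the fetal programme, had log2 signals of 8.88, 8.58 and 8.93 with the miR-543 vector, against 9.40, 9.12 and 9.15 with the control vector. All miR-543 arrays were lower, with a difference of -0.43 (SE 0.16, limma adjusted p = 0.373). The chromatin enzymes EHMT2 and HDAC2 had differences of 0.39 and -0.30, and the factors NFIA and CTCF had 0.36 and 0.27, with adjusted p between 0.48 and 0.571. The difference of EHMT2 was 0.19 without control replicate 1, and that of HDAC2 was -0.17 without miR-543 replicate 3.

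**Figure D5:**
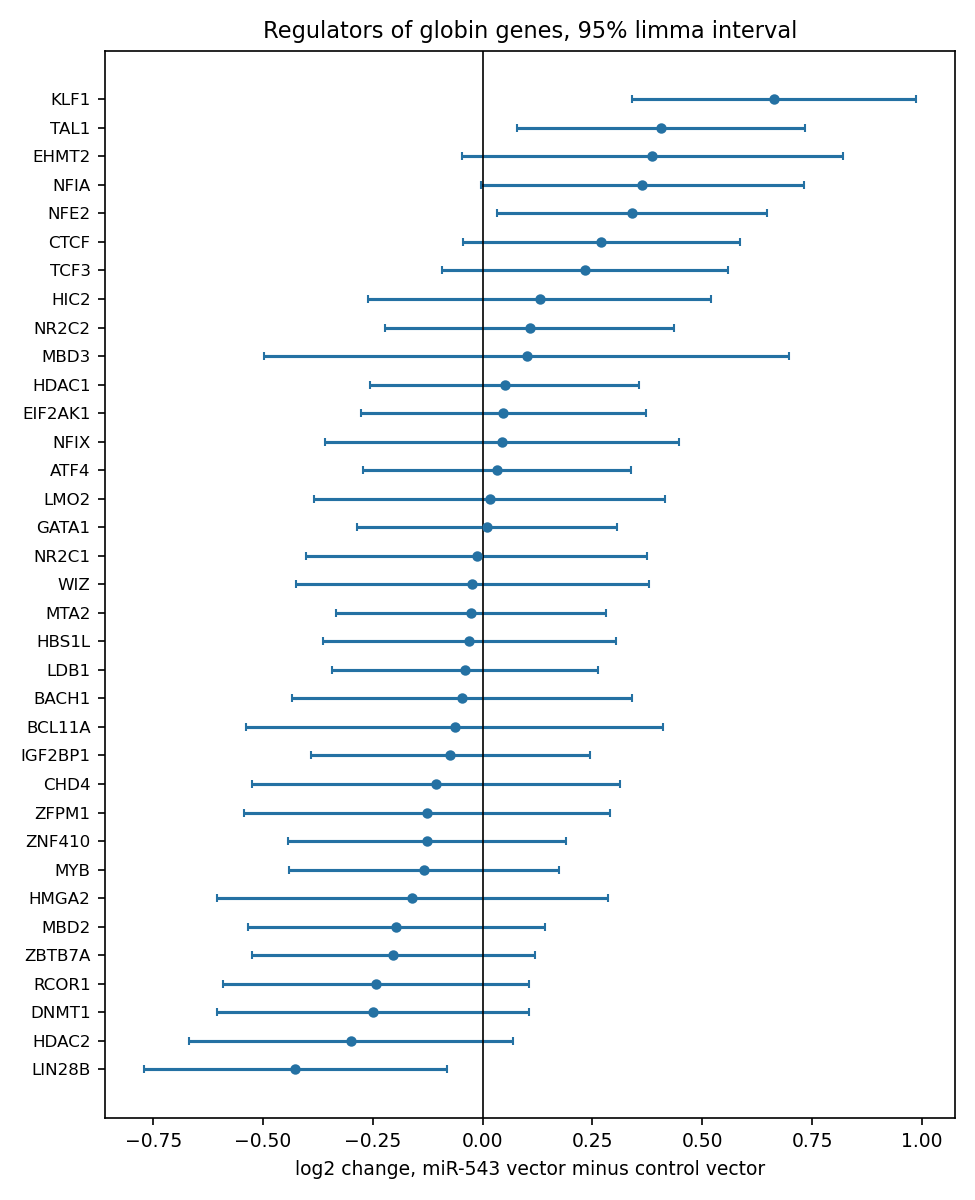
Log2 difference (miR-543 vector minus control vector) of the 35 measured regulators with 95% limma intervals, ordered by size. KLF1 (0.66) stands highest and LIN28B (-0.43) lowest, and none passed after adjustment over all probe sets.

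Partners of haemoglobin and globins outside the clusters overlapped between the vectors. AHSP, the chaperone of free alpha chains, had log2 signals of 3.49, 3.40 and 3.85 on the miR-543 arrays, against 3.34, 3.86 and 3.51 on the control arrays, all under the lower quartile of each array. Its log2 difference was 0.01 (SE 0.18). The globins outside the clusters lay below the array medians as well: myoglobin (MB) had a difference of 0.08, cytoglobin (CYGB) -0.14, neuroglobin (NGB) -0.10 and androglobin (ADGB) 0.12.

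Genes of haemoglobin and haem clearance did not pass either. Haptoglobin (HP), which binds free haemoglobin, had a difference of -0.37, hemopexin (HPX), which binds haem, -0.34, the scavenger receptor CD163 0.03, and haem oxygenase HMOX1 -0.22. Of these 9 partners and other globins 0 were called (0.569% of all probe sets) and 0 had an unadjusted p under 0.05 (10.6% of all probe sets). With 9 genes, counts of 0 lie near those shares. A mean under the middle of the array was found for 8 of the 9.

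Marker lists were read to check the cell type. Of 12 erythroid and K562 markers 9 had a named probe set. GATA1 was at 15.7 and the transferrin receptor TFRC at 14.9 in the miR-543 group, against 15.7 and 15.0 in the controls. DLK1 was brighter, at 16.5 against 15.9. Other markers were dimmer: KLF1 was at 7.47 against 6.81, EPOR at 6.46 against 6.31 and SLC4A1 at 3.97 against 3.5. The SLC4A1 means were under the lower quartile of every array. The 9 summed to 96.2 to 97.2 on the miR-543 arrays and 93.6 to 94.3 on the control arrays. The sums did not overlap, 7 of the 9 genes lay above 0, 5 had an unadjusted p under 0.05 (10.6% of all probe sets), and 0 were called in limma (0.569% of all probe sets). KLF1, TAL1 and GATA1 of this list are the same probe sets as among the regulators. The 5 with an unadjusted p under 0.05 were KLF1, TAL1, DLK1, SLC4A1 and ALAS2, the first enzyme of erythroid haem synthesis. Of the 9 measured markers, 5 had every miR-543 array higher, beside 7.89% of all probe sets, and they were these same 5. As the 5 were picked by p on the same arrays, their lack of overlap is not a separate result. DLK1, SLC4A1 and ALAS2 had differences of 0.63, 0.47 and 0.40 (limma adjusted p = 0.16, 0.379 and 0.385).

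Sums of the lists for other cell types overlapped between the vectors. The 7 measured lymphoid markers summed to 44.5 to 46.1 on the miR-543 arrays and 44.5 to 45.1 on the control arrays. The 7 monocyte and granulocyte markers summed to 40.7 to 41.0 on the miR-543 arrays and 40.5 to 41.5 on the control arrays. The 8 fibroblast and epithelial markers summed to 75.8 to 76.3 on the miR-543 arrays and 74.4 to 76.0 on the control arrays. Of these 3 lists 0 markers were called in limma, and 2, both lymphoid, had an unadjusted p under 0.05: CD3D (log2 difference 0.64) and PTPRC (-0.34). Over all probe sets 0.569% were called and 10.6% had an unadjusted p under 0.05. High signals were found for the monocyte marker LYZ (15.2 with the miR-543 vector, 15.2 with the control vector) and the epithelial KRT8 (15.1 with the miR-543 vector, 15.0 with the control vector). In the same order, EPCAM was at 13.4 and 13.7, KRT18 at 13.1 and 13.0, and KRT19 at 12.5 and 12.6. PTPRC was at 12.6 and 12.9, and CD3D at 11.2 and 10.6. Means under the middle of the array were found for 6 of the 7 monocyte and granulocyte markers. The same held for 4 of the 7 lymphoid and 3 of the 8 fibroblast and epithelial markers. In bulk RNA, fewer cells of a type and less RNA per cell cannot be told apart, and the part of these markers in the globin values was not tested.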

How the data were processed

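Expression was measured on 6 single-colour arrays, grouped by sample title. The authors deposited 1 log2 signal per probe set and array, with Transcriptome Analysis Console 4.0 and RMA named per the submitters' processing notes. The RMA variant and genome build are not given in the sources used here. The table held 0 columns of other samples. Precision is limited by having 6 arrays. Gene symbols came from the platform annotation and gene order from RefSeq GRCh38.p14.

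All 21448 probe sets were fitted with limma 3.58.1 in R 4.3.3 (lmFit, eBayes, no trend, block or filter), with Benjamini-Hochberg adjustment over all of them and a threshold of 0.05. Pair differences used exact permutation tests, with intervals from the pooled spread of both groups. The fit was tested on simulated data.

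Named genes were all globins, the 8 regulators with the smallest p plus KLF1, GATA1, BCL11A, ZBTB7A and MYB, all partners, the 2 nearest measured neighbours on each side, and the 5 probe sets most like the globin mean. OR51B4 falls under this rule. LMO2, LDB1, ZFPM1 and OR51B5 were named outside it, as were cell type markers that are not regulators. The members and lists were chosen with earlier results of these data known. Alternatives were trend and robust settings, quantile normalization, equal medians, a low-signal filter, a replicate block and leaving out each array.

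Deviations from the group means correlated at 0.0948, -0.0527 and 0.0181 for same-numbered arrays, so the numbers were not taken as pairs.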

Additional observations from a re-analysis of the deposited data

How the results depend on the processing

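Over 11 alternative fits the number of globins called stayed at 0, with adjusted p between 0.155 and 0.998. Of 87 globin values 85 kept their direction. The sign changed for HBB without control replicate 3 (0.13, leave-one-out range -0.43 to 0.13) and for HBQ1 without miR-543 replicate 2 (0.012, range -0.11 to 0.012). The shift of HBZ minus HBA1 changed sign without control replicate 2 (-0.05) and miR-543 replicate 2 (-0.083, range -0.083 to 0.097), and that of HBZ minus HBA2 did so without the same arrays (-0.033 and -0.053, range -0.053 to 0.092). Among other genes the sign changed for LUC7L (-0.0017 without control replicate 1, -0.055 without miR-543 replicate 1, range -0.055 to 0.095), GATA1 (-0.01 without control replicate 1, -0.032 without miR-543 replicate 1, range -0.032 to 0.058) and BCL11A (0.008 without control replicate 3, 0.15 without miR-543 replicate 2, range -0.31 to 0.15). Leaving out 1 array also moved the differences of these uncalled genes by over 1.5 times, within ranges of 0.02 to 0.42 for OR52A1, 0.12 to 0.31 for OR51V1, 0.12 to 0.28 for FAM234A, 0.23 to 0.47 for NFIA, -0.18 to -0.075 for MYB and -0.30 to -0.12 for ZBTB7A. The cause was not tested. The count of regulators called was 0 and became 1, KLF1, with the low-signal filter, where fewer genes were tested.

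The count over all probe sets was 122, and became 252 with trend and robust settings, 71 with the replicate block and 34 to 59 when 1 array was left out. The replicate block moved no globin past the threshold (adjusted p = 0.247 for HBD). No symbol had several probe sets, so the other choice of row gave no value, and the low-signal filter removed HBM. Planned pairs with HBG1 or HBG2 were not run. Detection calls were not used, which limits HBM, the dimmest globin.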

Other observations

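The mean log2 signal of the 7 globin probe sets at or above the middle of the array was 12.6, 12.6 and 12.7 on the miR-543 arrays and 12.4, 12.3 and 12.6 on the control arrays, with control replicate 3 inside the miR-543 range. As a description over 6 arrays that share 1 normalization, the probe sets outside the globins most like this mean by Pearson's r were TM4SF5 (0.993), CCDC179 (0.992), UXT (0.988), LINC01342 (0.988) and CCDC134 (0.988), and 236 of 17701 candidates reached 0.9. With 6 arrays and this many candidates such values carry no test. The mean was not scaled by gene, so the more variable genes weigh more in its pattern. These include HBB (control SD 0.57) and HBD (SD 0.33 with the miR-543 vector, 0.34 with the control vector). TM4SF5 had log2 signals with a mean of 4.97 ± 0.10 with the miR-543 vector and 4.47 ± 0.48 with the control vector (SD, n = 3), below the array medians in both groups.

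Among other olfactory receptor genes of the beta-globin region, OR51B5 had log2 signals of 14.28, 14.24 and 14.21 on the miR-543 arrays, against 14.35, 14.37 and 14.23 on the control arrays, a difference of -0.07 (limma adjusted p = 0.9). Like OR51B4, it lay above the array upper quartiles of 9.61 to 9.66. It was chosen for mention after its values were seen.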
